A study of Homo sapiens with 32 samples.

Results

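Irradiated MCF10A cells lacking cGAS were set directly against irradiated MCF10A cells lacking STING, gene by gene. The comparison took 4 of the 32 libraries of the series, chosen by their genotype and treatment labels, 2 of cGAS KO cells and 2 of STING KO cells, and covered all 60332 genes of the count table, of which 15190 had enough reads to be tested. MCF10A is a non-tumorigenic human breast epithelial line with basal character. Both knockout (KO) lines had been made with lentiviral Cas9 and guide vectors, were grown up from single cells, and were collected 5 days after 10 Gy of ionizing radiation, with no inhibitor named in their labels. No unirradiated culture of either line was analysed here, and no wild-type (WT) culture enters the fold changes. The other 10 MCF10A libraries of the same experiment, 2 each, gave the spread and the context. They were XRCC4 KO cells 5 days after 10 Gy, WT cells 5 days after 10 Gy with DMSO, WT cells 5 days after 10 Gy with a CDK1 inhibitor, WT cells 3 days after 10 Gy with DMSO, and untreated WT cells. Each line descends from single cells, so the effect of a lost gene and any other difference between the clones cannot be told apart. The sources used here do not say whether each pair of libraries came from separate cultures, so p-values reflect only how far these libraries varied, possibly for technical reasons.

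cGAS is an enzyme that binds double-stranded DNA in the cytosol or in ruptured micronuclei and makes the cyclic dinucleotide cGAMP. STING, a membrane protein of the endoplasmic reticulum, binds cGAMP and, through the kinase TBK1, activates the transcription factor IRF3 and NF-kB. Type I interferon made in this way acts back on cells through its receptor and switches on the interferon-stimulated genes. The lines thus lack neighbouring steps of a single pathway, and setting one against the other asks what differs between losing the sensor and losing the adaptor in irradiated cells.

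Few genes passed the test between the lines. Of 15190 genes, 21 passed edgeR's quasi-likelihood test at an adjusted p below 0.05, which is 0.138% of the genes tested. The cGAS KO line was higher for 11 of them (0.0724%) and lower for 10 (0.0658%). At an unadjusted p below 0.05 there were 360 genes higher and 384 lower, and the median log2 fold change over all tested genes was -0.0030. The targeted genes had the smallest adjusted p-values of the 21, and the other 19 included 4 zinc finger (ZNF) genes. No list of the interferon, p53, cell cycle, stress or differentiation genes described below had a member called, apart from the 2 targets among the sensing genes. The spread was uneven between the lines: 0.847% of genes with a mean of at least 1 CPM (counts scaled to library size) differed by over 2-fold between the 2 cGAS KO libraries, against 4.96% between the 2 STING KO libraries. The root-mean-square log2 distance over genes was 0.302 between the cGAS KO libraries and 0.505 between the STING KO libraries, and 0.439 to 0.497 for the 4 pairs across the lines. Library totals were 16595879 and 11845002 counts in cGAS KO and 12898990 and 11744217 in STING KO. All 4 libraries carried the basal breast markers, each at 87.5 CPM or more, including KRT5 at 9152 and 8659 CPM in cGAS KO and 9174 and 10610 CPM in STING KO. Of 5 immune and endothelial markers, HBB was at 0 counts in the 4 libraries, PTPRC, CD3E and CDH5 stayed at or under 0.371 CPM, and CD14 had 11.004 and 8.49 CPM in cGAS KO and 5.89 and 8.71 CPM in STING KO. With 2 libraries a side an exact permutation test cannot go below p = 0.333, so the calls rest on a spread estimated over 14 libraries.

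The targeted genes followed their labels. MB21D1, the older symbol of the gene for cGAS (ENSG00000164430, hg19 chr6:74078278-74161999), had 1.24 and 1.30 CPM in cGAS KO against 13.97 and 11.1 CPM in STING KO, or 20 and 15 counts against 178 and 125. The cGAS KO libraries lay under all the others, since MB21D1 ran from 10.7 to 19.8 CPM in the 10 libraries of the other groups. The log2 fold change of cGAS KO over STING KO was -3.30 ± 0.23 (SE; 95% interval -3.81 to -2.80, edgeR adjusted p = 0.000418). TMEM173, the older symbol of the gene for STING (ENSG00000184584, hg19 chr5:138855119-138862520), had 63.5 and 66.0 CPM in cGAS KO and 9.97 and 9.16 CPM in STING KO. Its level in the cGAS KO line lay inside the 33.4 to 83.4 CPM of the other 10 libraries, and the STING KO libraries lay under them. The log2 fold change was 2.76 ± 0.23 (95% interval 2.25 to 3.27, edgeR adjusted p = 0.00137). The MB21D1 values of STING KO were under the 14.56 to 19.8 CPM of the 8 WT libraries and just above the 11.01 and 10.7 CPM of XRCC4 KO. Both genes stayed called when any of the 4 libraries was left out. The other sensing genes did not pass. TBK1, the kinase downstream of STING, had 48.0 and 48.5 CPM in cGAS KO and 42.7 and 41.6 CPM in STING KO (log2 fold change 0.20, edgeR adjusted p = 1). Of the 20 sensing genes tested, 1 was called higher and 1 lower, and these were the targets.

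Each of the other 19 called genes separated the lines completely, with both libraries of 1 line above both of the other, as did 19.4% of all tested genes with cGAS KO above and 19.8% with cGAS KO below. In most of them a single line stood outside all the other libraries. Among the 21, the STING KO libraries lay under the other 10 libraries for 9 genes, TMEM173 included, while the cGAS KO libraries did not. The cGAS KO libraries lay under them for 7 genes, MB21D1 included, while the STING KO libraries did not. For ZNF790, among these 7, XRCC4 KO was almost as empty. It had 0.0867 and 0.0964 CPM there, against 0.0618 and 0 CPM in cGAS KO, so that cGAS KO did not clearly stand alone. PCYT1B was above the other libraries in STING KO, JAM3 was below them in both lines, and for ARHGAP42, SLC35G2 and TBCB neither line stood apart.

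**Figure D1:**
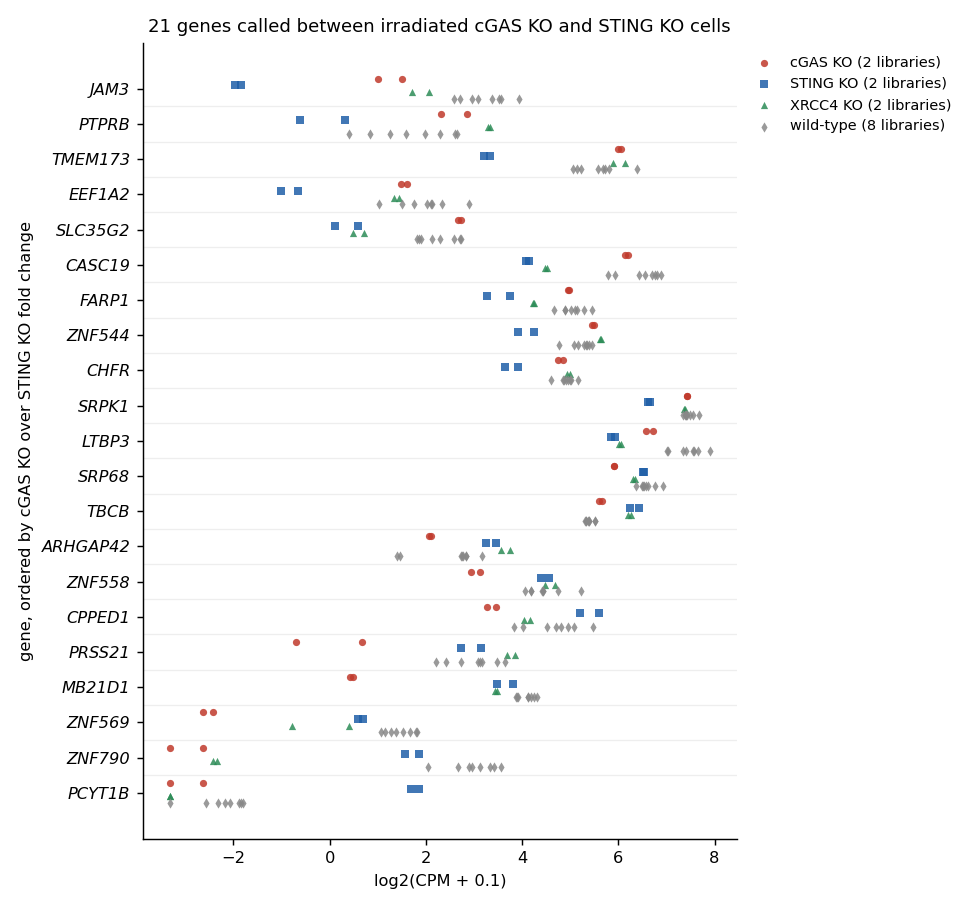
Level of the 21 called genes as log2(CPM + 0.1), each point a library, with cGAS KO, STING KO, XRCC4 KO and the 8 wild-type libraries on rows of their own. For SRPK1, CHFR and ZNF544 the STING KO libraries sit left of all others, and for SRP68, ZNF558 and MB21D1 the cGAS KO libraries do.

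Genes set apart by a low level in the STING KO line included a kinase, a ubiquitin ligase and a matrix regulator of growth factor release. SRPK1, a kinase of SR splicing factors, had 172 and 172 CPM in cGAS KO and 98.5 and 100.4 CPM in STING KO, against 162 to 205 CPM in the other groups. The lines differed by 0.79 ± 0.09 on the log2 scale (edgeR adjusted p = 0.00924). CHFR, a ubiquitin ligase of the early mitotic checkpoint, had 26.9 and 28.7 CPM in cGAS KO and 12.4 and 15.03 CPM in STING KO (log2 fold change 1.02 ± 0.16, edgeR adjusted p = 0.0444). FARP1, a guanine nucleotide exchange factor, had 31.3 and 30.7 CPM in cGAS KO and 13.3 and 9.51 CPM in STING KO. For LTBP3, which holds latent TGF-beta in the matrix, the values were 105.0 and 94.99 CPM in cGAS KO and 57.6 and 60.8 CPM in STING KO. XRCC4 KO had 66.9 and 64.6 CPM of LTBP3. The WT libraries ran from 129 to 239 CPM, so that cGAS KO lay under them too. The long non-coding RNA CASC19 had 73.2 and 70.0 CPM in cGAS KO and 17.7 and 16.9 CPM in STING KO, with 22.2 and 22.95 CPM in XRCC4 KO. Thus the XRCC4 KO line, which has both genes of the pathway, was close to STING KO for CASC19 and LTBP3. For SRPK1 it was apart from STING KO, at 168 and 164 CPM.

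Several low genes of the same direction had larger ratios and fewer reads. JAM3, a junctional adhesion molecule, had 44 and 22 counts in cGAS KO and 2 and 2 counts in STING KO, a ratio of 14.3 with a 95% counting interval of 5.32 to 53.9. PTPRB, a receptor tyrosine phosphatase, had 4.88 and 7.10 CPM in cGAS KO and 0.549 and 1.16 CPM in STING KO. Untreated WT cells had 1.68 and 1.21 CPM of PTPRB, so STING KO lay only narrowly under the other libraries. EEF1A2, a tissue-restricted translation elongation factor, had 2.97 and 2.68 CPM in cGAS KO and 0.392 and 0.533 CPM in STING KO. SLC35G2, of a family of membrane transporters, had 6.24 and 6.49 CPM in cGAS KO and 1.41 and 0.978 CPM in STING KO, and its 1.30 and 1.54 CPM in XRCC4 KO were as low. All 4 passed edgeR's test, with adjusted p-values of 0.0102 for JAM3, 0.0468 for PTPRB, 0.0379 for EEF1A2 and 0.00724 for SLC35G2.

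Genes lower in the cGAS KO line included subunits of basic cell machinery beside weakly read ones. SRP68, a protein of the signal recognition particle, had 60.4 and 59.8 CPM in cGAS KO and 92.4 and 91.5 CPM in STING KO, against 78.8 to 122 CPM in the other groups. On the log2 scale SRP68 differed by -0.61 ± 0.09 (edgeR adjusted p = 0.0284), the smallest size among the 21 called genes. TBCB, a cofactor of tubulin folding, had 50.8 and 48.7 CPM in cGAS KO and 85.8 and 76.0 CPM in STING KO. Here the 45.6 and 45.6 CPM of irradiated WT cells at 5 days were near the cGAS KO values. The 73.5 and 77.3 CPM of XRCC4 KO were near those of STING KO. CPPED1, a phosphoesterase, had 10.8 and 9.61 CPM in cGAS KO and 48.3 and 36.5 CPM in STING KO (log2 fold change -2.05 ± 0.22, edgeR adjusted p = 0.00724). PRSS21, a membrane-anchored serine protease, had 1.48 and 0.520 CPM in cGAS KO and 8.71 and 6.58 CPM in STING KO.

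The zinc finger genes, most of which encode DNA-binding repressors, moved in both directions. ZNF544 was higher in cGAS KO, at 43.4 and 45.3 CPM against 14.99 and 18.8 CPM in STING KO (log2 fold change 1.39 ± 0.16, edgeR adjusted p = 0.00924). ZNF558 was lower, at 8.59 and 7.53 CPM in cGAS KO against 21.03 and 23.6 CPM in STING KO (-1.46 ± 0.18, edgeR adjusted p = 0.0128). ZNF790 had 1 and 0 counts in cGAS KO and 45 and 32 counts in STING KO, a ratio of 89.0 of STING KO over cGAS KO with a counting interval of 15.5 to 3560. It also had at most 0.0964 CPM in XRCC4 KO, against 11.7 and 10.0 CPM in irradiated WT cells at 5 days. ZNF569 had 1 and 1 counts in cGAS KO and 18 and 17 counts in STING KO. ZNF345, which shares the interval of ZNF790 (hg19 chr19:37288420-37407193), had a log2 fold change of -5.72. ZNF570, which shares that of ZNF569 (hg19 chr19:37902057-37979554), had -4.49. Neither ZNF345 nor ZNF570 was called. The 4 called ZNF genes lie on chromosome 19, which held 5 of the 21 calls among its 1074 tested genes, beside 0.138% called over all. Of the 428 ZNF genes tested, 1 was called higher and 3 lower, beside 0.0724% and 0.0658% of all tested genes, with a median log2 fold change of 0.03.

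PCYT1B and ADD2 were almost unread in 1 of the lines. PCYT1B, an enzyme of phosphatidylcholine synthesis, had 1 and 0 counts in cGAS KO and 45 and 35 counts in STING KO. The other 10 libraries had at most 0.187 CPM of it, so its presence set the STING KO line apart (edgeR adjusted p = 0.0198, with a counting ratio of 92.5 and an interval of 16.1 to 3697). ADD2, which encodes beta-adducin of the membrane skeleton, was the only gene with at least 5 CPM in both libraries of 1 line and at most 0.1 CPM in both of the other. It had 6.86 and 5.71 CPM in cGAS KO and 0 counts in both STING KO libraries, at least 51.0-fold higher against a floor of 3 counts over the pair. XRCC4 KO had 0.0867 and 0 CPM of ADD2, and irradiated WT cells at 5 days had 0.344 and 2.02 CPM. Its difference did not pass (edgeR adjusted p = 0.095).

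The list of 21 depended on the number of libraries behind the spread. There were 4 genes called without cGAS KO replicate 1, 3 without cGAS KO replicate 2, 3 without STING KO replicate 1 and 10 without STING KO replicate 2, and between 3 and 6 of the 21 were among them. With the 6 libraries of the 3 knockout lines alone, where the common biological coefficient of variation was 0.109 rather than 0.187, 98 of 13993 genes passed (0.700%), 50 higher (0.357%) and 48 lower (0.343%). These included 20 of the 21, and 78 genes that had not been called. Values from that fit are named as such below.

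Interferon-stimulated genes were higher in cGAS KO than in STING KO as a group, while no member passed the test. The list held 57 genes, and 56 were tested. Their median log2 fold change was 0.80, beside -0.0030 over all tested genes, and 54 of 56 had a value above 0. In 48 of 56 (85.7%) both cGAS KO libraries were above both STING KO libraries, beside 19.4% of all tested genes, and in 1 they were below both. The members answer to a shared signal and were read in the same libraries, so they are not independent observations. At an unadjusted p below 0.05 there were 6 higher members and 0 lower ones, beside 2.37% and 2.53% of all tested genes. The mean level of the list was 5.58 and 5.44 log2 CPM in cGAS KO and 4.99 and 4.36 log2 CPM in STING KO. On the same scale it was 4.46 and 4.49 in XRCC4 KO, 8.15 and 6.64 in irradiated WT cells at 5 days, 4.06 and 3.01 in those with the CDK1 inhibitor, 4.95 and 3.84 in irradiated WT cells at 3 days, and 3.35 and 3.29 in untreated WT cells. By this mean both KO lines lay above untreated WT cells and below irradiated WT cells at 5 days without the inhibitor. By the same mean the cGAS KO libraries were above those of the other WT groups. Not every member followed the mean. UBE2L6 had 11.6 and 10.1 CPM in cGAS KO and 9.5 and 4.89 CPM in STING KO. Untreated WT cells had 28.2 and 27.3 CPM of it. In cultures, fewer responding cells and less RNA per cell cannot be told apart.

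**Figure D2:**
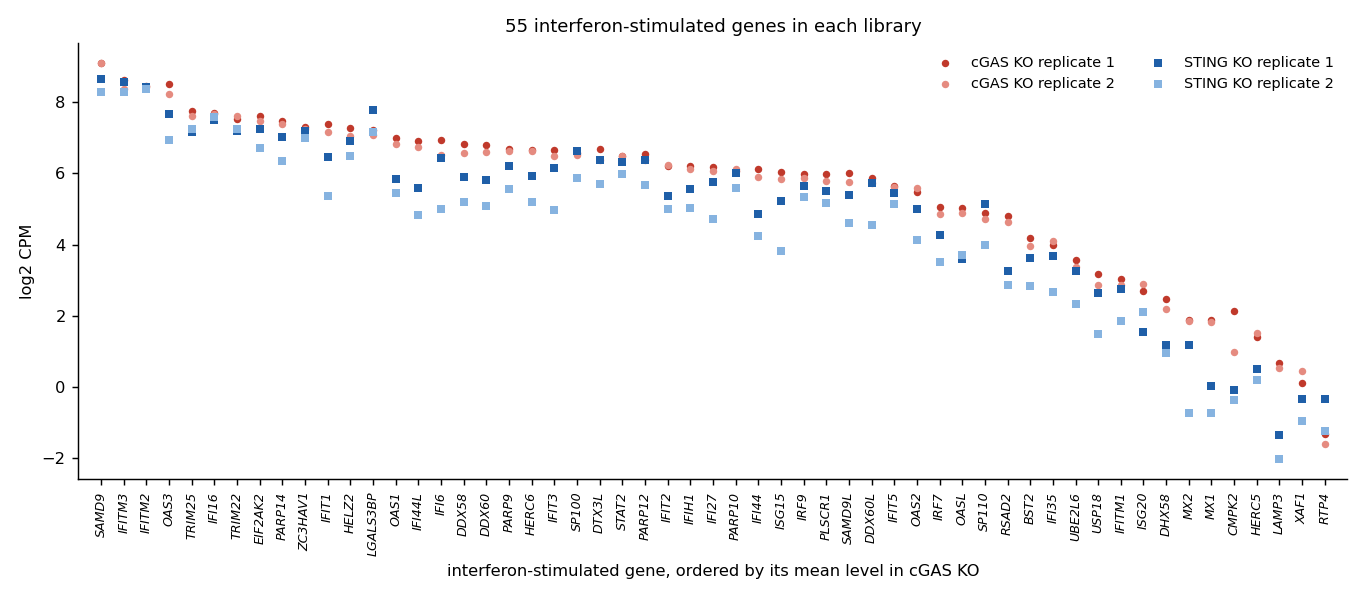
Level in log2 CPM of 55 interferon-stimulated genes in each cGAS KO and STING KO library, ordered by the mean level in cGAS KO. Both cGAS KO points lie above both STING KO points in 47 genes, and STING KO replicate 2 lies under replicate 1 by a median of 0.68.

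The promoters of these genes show what the list shares in sequence. The element bound by interferon regulatory factors was searched on both strands as GAAA, any 2 bases and GAAA again, from 250 bases before to 50 bases after each gene's start in RefSeq (GRCh38.p14). It was found in 26 of the 43 members that had a promoter sequence (60.5%), and in 996 of 27305 promoters (3.65%). Overlapping matches were kept. The windows below belong to members described here and each is 60 bases long, on the gene's strand from 5′ to 3′. Capitals mark matches, which read TTTC at each end on the other strand. They were taken from chr10:89392495-89392554 for IFIT1, chr1:1013365-1013424 for ISG15, chr1:78649729-78649788 for IFI44 and chr1:78620350-78620409 for IFI44L, all of them on the plus strand.
IFIT1: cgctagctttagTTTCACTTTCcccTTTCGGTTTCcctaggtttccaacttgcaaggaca
ISG15: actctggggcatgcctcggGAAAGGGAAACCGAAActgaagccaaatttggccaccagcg
IFI44: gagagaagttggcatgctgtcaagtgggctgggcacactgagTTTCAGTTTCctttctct
IFI44L: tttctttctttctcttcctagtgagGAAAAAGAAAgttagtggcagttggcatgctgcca
The stretch in ISG15 holds 2 matches that overlap. A match is a description of the letters in the window, not evidence that a factor binds there.

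The gene values behind the list medians were as follows. IFIT1, which binds viral RNA ends, had 166 and 144 CPM in cGAS KO and 88.5 and 40.8 CPM in STING KO, beside 1138 and 279 CPM in irradiated WT cells at 5 days and 0.805 and 0.607 CPM in untreated WT cells. The lines did not overlap, and the log2 fold change was 1.26 ± 0.83 (95% interval -0.62 to 3.14, edgeR adjusted p = 1). ISG15, a ubiquitin-like modifier, had 66.3 and 57.8 CPM in cGAS KO and 37.5 and 13.9 CPM in STING KO. MX1, an antiviral GTPase, had 3.52 and 3.38 CPM in cGAS KO and 0.863 and 0.445 CPM in STING KO, beside 355 and 88.3 CPM in irradiated WT cells at 5 days and 2.64 and 1.52 CPM in untreated WT cells. For MX1 the STING KO libraries were thus under the untreated level. IFI44L had 121 and 107 CPM in cGAS KO and 48.3 and 28.2 CPM in STING KO, and the smallest unadjusted p of the list in edgeR (0.00641, adjusted p = 0.536).

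Some members were called once the spread came from the knockout lines alone. In that 6-library fit 6 of 55 interferon-stimulated genes passed, all of them higher in cGAS KO, beside 0.357% of all genes tested there. OAS1, a sensor of double-stranded RNA that makes oligoadenylates, had 127 and 114 CPM in cGAS KO and 56.98 and 43.3 CPM in STING KO (6-library edgeR log2 fold change 1.27 ± 0.13, adjusted p = 0.00786). OASL, its relative without that activity, had 32.7 and 29.3 CPM in cGAS KO and 11.9 and 12.9 CPM in STING KO. RSAD2, which encodes the antiviral enzyme viperin, had 27.8 and 24.5 CPM in cGAS KO and 9.497 and 7.11 CPM in STING KO. IFIT2 had 73.4 and 75.1 CPM in cGAS KO and 41.1 and 32.0 CPM in STING KO. IFI44 had 69.5 and 59.6 CPM in cGAS KO and 29.0 and 18.8 CPM in STING KO. TRIM25, a ubiquitin ligase of RNA sensing, had 218 and 197 CPM in cGAS KO and 144 and 153 CPM in STING KO, both lines being under the 280 and 273 CPM of untreated WT cells. The adjusted p-values of the last 4 in the 6-library edgeR fit ran from 0.00786 for RSAD2 to 0.0437 for TRIM25. Of the 6, 4 had a promoter sequence, and 1 of these held the element.

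The size of the group difference depended on the STING KO library used. The median log2 fold change of the list was 1.22 without STING KO replicate 1 and 0.46 without STING KO replicate 2, and the median gap between those 2 libraries was 0.68 on the log2 scale. In 9 of the 56 genes STING KO replicate 1 was over 2-fold above replicate 2, beside 2.42% of all tested genes. It was 0.70 and 0.86 without cGAS KO replicate 1 and 2. The gene for the interferon IFNB1 was too low to test, at 0 and 1 counts in cGAS KO and 2 and 1 counts in STING KO. The chemokine CXCL10 had 1.42 and 1.56 CPM in cGAS KO and 1.49 and 1.60 CPM in STING KO, and CCL5 had 0.989 and 0.520 CPM in cGAS KO and 3.69 and 1.16 CPM in STING KO. CCL5 was the reverse of the interferon-stimulated genes in direction (log2 fold change -1.65 ± 0.80, edgeR adjusted p = 1). The 27 antigen presentation and guanylate-binding genes tested had a median of 0.19, with 0 called.

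Inflammatory genes had mostly negative values, and their median rested largely on STING KO replicate 1. Of 37 NF-kB and secretory inflammatory genes tested, 0 were called, 27 had a value below 0, and the median log2 fold change was -0.28. In 14 of them (37.8%) both cGAS KO libraries were below both STING KO libraries, beside 19.8% of all tested genes. At an unadjusted edgeR p below 0.05, 1 was higher and 3 were lower, beside 2.37% and 2.53% of all tested genes. The median was -0.04 without STING KO replicate 1 and -0.59 without replicate 2. IL1B, an inflammatory cytokine, had 72.6 and 81.1 CPM in cGAS KO and 147 and 155 CPM in STING KO (log2 fold change -0.97 ± 0.49, edgeR adjusted p = 1). The STING KO values were above the 67.8 and 80.4 CPM of XRCC4 KO. IL1B in irradiated WT cells at 5 days came nearer to them, at 88.9 and 136 CPM. IL1A, its relative released by damaged epithelium, had 221 and 251 CPM in cGAS KO and 380 and 366 CPM in STING KO. Irradiated WT cells at 3 days had 391 and 359 CPM of IL1A, near the STING KO values. Unlike the list median, IL1B and IL1A were thus even between the STING KO libraries. In the 6-library edgeR fit IL1B and IL1A passed, at adjusted p-values of 0.00786 and 0.0217, beside 0.343% of all genes called lower there. TLR2, a receptor for bacterial lipoproteins named here after its values were seen, had 1.24 and 1.90 CPM in cGAS KO and 13.7 and 13.2 CPM in STING KO (6-library edgeR adjusted p = 0.00341). It had 0.607 and 0.386 CPM in XRCC4 KO and 20.1 and 7.65 CPM in irradiated WT cells at 5 days. CXCL8 had 13.04 and 14.98 CPM in cGAS KO and 21.03 and 8.62 CPM in STING KO, where the STING KO values lay on both sides of the others. IL6 had at most 0.628 CPM in any of the 4 libraries. TNFAIP2, named here after its values were seen, went the other way, at 36.0 and 41.8 CPM in cGAS KO and 24.3 and 26.8 CPM in STING KO. SERPINB2, a serpin-family protease inhibitor, had 140 and 132 CPM in cGAS KO and 280 and 243 CPM in STING KO (6-library edgeR adjusted p = 0.00786).

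Stress genes were on the median lower in cGAS KO, with different genes high in each STING KO library. Of 30 genes of the integrated stress and unfolded protein responses tested, 0 were called and 27 had a value below 0, with a median log2 fold change of -0.61, at -0.54 without STING KO replicate 1 and -0.17 without replicate 2. At an unadjusted p below 0.05, 8 were lower, beside 2.53% of all tested genes, and in 13 (43.3%) both cGAS KO libraries were below both STING KO libraries, beside 19.8% of them. XBP1, a transcription factor of the unfolded protein response, had 77.8 and 82.4 CPM in cGAS KO and 119 and 127 CPM in STING KO. DDIT3, which encodes the factor CHOP, had 9.52 and 7.79 CPM in cGAS KO and 21.9 and 18.7 CPM in STING KO. Both were even between the STING KO libraries and passed in the 6-library edgeR fit, at adjusted p-values of 0.0155 and 0.0266.

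Other stress genes split by library. Of the 30, 4 were over 2-fold higher in STING KO replicate 1 than in replicate 2 and 8 over 2-fold lower, beside 2.42% and 4.73% of all tested genes. Members of the endoplasmic reticulum chaperone set, drawn after the values were seen and so described without a test, were high in STING KO replicate 1. HSPA5, the chief chaperone of the endoplasmic reticulum, had 715 and 733 CPM in cGAS KO and 1848 and 779 CPM in STING KO. HSP90B1 had 622 and 650 CPM in cGAS KO and 1485 and 615 CPM in STING KO, and PDIA4 had 204 and 196 CPM in cGAS KO and 510 and 184 CPM in STING KO. Over the 9 genes of the set, the median log2 level relative to the cGAS KO mean was 1.22 in STING KO replicate 1 and 0.06 in replicate 2. The 12 amino acid and ATF4 response genes did the reverse, at 0.15 in replicate 1 and 1.31 in replicate 2. ASNS, which makes asparagine, had 48.3 and 48.7 CPM in cGAS KO and 45.1 and 208 CPM in STING KO. PHGDH, the first enzyme of serine synthesis, had 7.54 and 6.32 CPM in cGAS KO and 4.003 and 41.8 CPM in STING KO. CHAC1, a glutathione-degrading enzyme induced by ATF4, had 6.31 and 4.85 CPM in cGAS KO and 6.28 and 31.9 CPM in STING KO. For these 6 genes 1 STING KO library was near the cGAS KO pair and the other far above it, and none of the 6 passed. The amino acid genes split in irradiated WT cells at 3 days too. There ASNS had 251 and 29.0 CPM, PHGDH 99.6 and 13.0 CPM, and CHAC1 50.6 and 6.35 CPM. The chaperone genes were more even there, with HSPA5 at 1007 and 983 CPM, HSP90B1 at 897 and 1157 CPM and PDIA4 at 243 and 327 CPM. The cGAS KO pair differed by 0.02 and 0.22 in median over the 9 and the 12 genes.

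**Figure D3:**
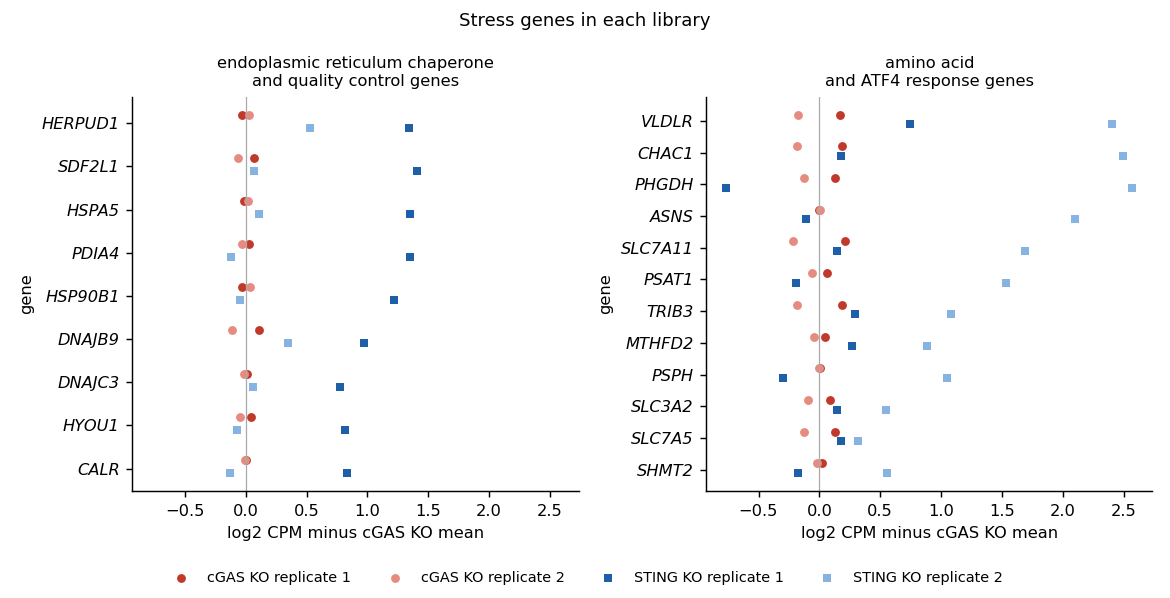
Level of 9 endoplasmic reticulum genes and 12 amino acid response genes in each library, as log2 CPM minus the cGAS KO mean of the gene. STING KO replicate 1 lies to the right in the first panel and STING KO replicate 2 in the second.

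Each set was searched for the promoter element its genes are known for. The endoplasmic reticulum stress element, searched on both strands as CCAAT, any 9 bases and CCACG, was in the RefSeq promoters of 3 of the 9 chaperone genes and in 22 of 27305 promoters (0.0806%). TGATGNAA, a core of the amino acid response element bound by ATF4, was in 3 of the 9 amino acid response genes that had a promoter sequence and in 1003 of 27305 promoters (3.67%). The windows for a gene of each set are shown on the gene's strand, with matches in capitals, from chr9:125241371-125241430 for HSPA5 and chr7:97872443-97872502 for ASNS (GRCh38.p14, both minus strand).
HSPA5: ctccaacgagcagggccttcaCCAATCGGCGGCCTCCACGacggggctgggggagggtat
ASNS: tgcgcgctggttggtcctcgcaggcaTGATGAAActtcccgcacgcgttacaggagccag
The shares in the other promoters are given to show how common the letters are, and no binding was measured.

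Differentiation genes split in the same manner. The 41 tested epidermal differentiation genes had a mean level of 4.80 and 5.16 log2 CPM in cGAS KO and 4.22 and 5.85 log2 CPM in STING KO, and 0 were called. In 30 of them STING KO replicate 2 was over 2-fold above replicate 1, beside 4.73% of all tested genes. IVL, which encodes involucrin of the cornified envelope, had 43.9 and 76.5 CPM in cGAS KO and 34.8 and 149 CPM in STING KO. SPRR2A, another envelope precursor, had 25.4 and 31.7 CPM in cGAS KO and 28.1 and 112 CPM in STING KO. Their median log2 fold change was -0.19, at -0.82 without STING KO replicate 1 and 0.95 without replicate 2, so no direction can be given. The basal keratin KRT14 had 2572 and 2298 CPM in cGAS KO and 3292 and 5199 CPM in STING KO (log2 fold change -0.80 ± 0.34, edgeR adjusted p = 0.955).

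Genes of the p53 response and the cell cycle did not differ beyond the spread. CDKN1A, the p53 target that blocks cyclin-dependent kinases, had 1286 and 1210 CPM in cGAS KO and 1406 and 1298 CPM in STING KO, beside 162 and 115 CPM in untreated WT cells. The 95% interval of its log2 fold change was -0.54 to 0.31. MDM2, which degrades p53, had 650 and 637 CPM in cGAS KO and 611 and 607 CPM in STING KO, with an interval of -0.26 to 0.41. Over 40 p53 target genes the median was -0.04 with 0 called. Medians were 0.02 over 44 G2-M genes and -0.0048 over 50 G1-S and replication genes, with 0 called in each. The proliferation marker MKI67 had 98.7 and 91.8 CPM in cGAS KO and 110 and 73.4 CPM in STING KO, and CDK1 had 30.2 and 28.2 CPM in cGAS KO and 34.4 and 23.3 CPM in STING KO. For each gene the STING KO values lay on either side of the cGAS KO pair. The 14-library intervals, -1.16 to 1.27 for MKI67 and -1.49 to 1.53 for CDK1, would allow over 2-fold differences. The spread of the knockout lines alone gave smaller errors. In the 6-library edgeR fit the log2 fold change was 0.06 ± 0.18 (SE) for MKI67 and 0.02 ± 0.17 for CDK1. Of the mesenchymal and matrix genes, 41 were tested and 0 called, with a median of -0.37, and in 21 of them (51.2%) both cGAS KO libraries were below both STING KO libraries, beside 19.8% of all tested genes. That median was -0.17 without STING KO replicate 1 and -0.49 without replicate 2. Medians of the cholesterol, hypoxia, NRF2, histone, AP-1 and EGF, HOX and luminal lists lay between -0.10 and 0.12, with 0 called in each. EREG, an EGF receptor ligand, had 29.9 and 29.1 CPM in cGAS KO and 13.97 and 16.3 CPM in STING KO and passed in the 6-library edgeR fit (adjusted p = 0.0136). HSPB8, a small heat shock protein named here after its values were seen, had 9.09 and 9.35 CPM in cGAS KO and 0.628 and 1.16 CPM in STING KO (6-library edgeR adjusted p = 0.00341). XRCC4 KO had 5.72 and 6.27 CPM of HSPB8 and the WT libraries 0.0689 to 2.41 CPM. Thus cGAS KO stood above the others, and STING KO lay within the WT range.

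By chromosome, the 2 lines were level with each other. Over genes with a mean of at least 10 CPM in the 4 libraries, the median log2 difference from the cGAS KO mean lay between -0.06 and 0.07 for each of 23 chromosomes in the STING KO and XRCC4 KO libraries. The 8 WT libraries stood apart on 5 of them. On chromosomes 7, 8, 11, 13 and 19 every WT library was lower, untreated ones included, with medians between -0.46 and -0.29. On the other 18 chromosomes the WT medians ran from -0.11 to 0.15. The 3 knockout lines therefore shared a raised level of the genes on 5 chromosomes relative to the WT cultures, whatever their treatment. The cause of that difference was not tested.

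**Figure D4:**
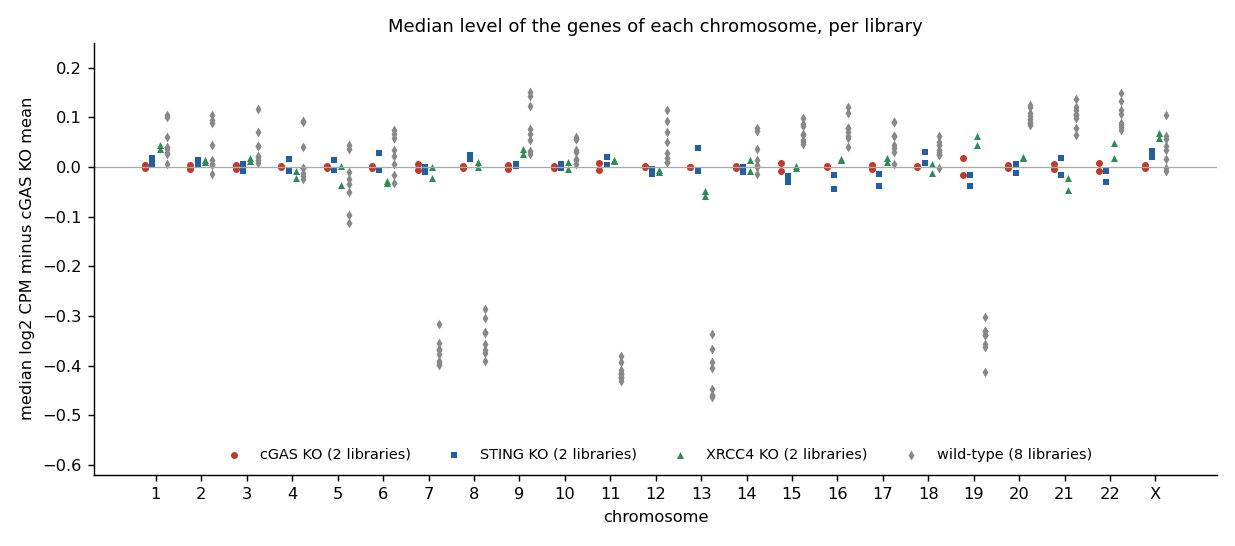
Median over the genes of each chromosome of log2 CPM minus the cGAS KO mean, each point a library. STING KO and XRCC4 KO stay near 0 throughout, and the 8 wild-type libraries drop to between -0.46 and -0.29 on chromosomes 7, 8, 11, 13 and 19.

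Runs of neighbouring genes were less even than whole chromosomes. In runs of 15 genes the lowest median was on chromosome 1, from CRCT1 to SPRR2F (-0.61). MMP7 to CARD18 on chromosome 11 was close to it (-0.59). Both cGAS KO libraries were below both STING KO libraries in 3 and 8 genes of these runs, beside 19.8% of all tested genes. The chromosome 1 run holds epidermal differentiation genes, IVL and SPRR2A included, which split between the STING KO libraries and had no clear direction. Among all runs of 25 neighbouring tested genes, 14624 in number, the lowest median log2 fold change was -0.55, for the run YAP1 to ALKBH8 (hg19 chr11:101981192-107436472). The lowest run on any other chromosome had -0.32 and ran from S100A11 to S100A12 on chromosome 1, across the same epidermal genes. In 4 of its genes both cGAS KO libraries were below both STING KO libraries, against 14 in YAP1 to ALKBH8. The highest median anywhere was 0.27, and 99% of the runs lay between -0.18 and 0.15. In runs of 40 genes the lowest was the stretch JRKL to RDX (hg19 chr11:96123153-110167447) with -0.46, where 27 of 40 genes had both cGAS KO libraries below both STING KO libraries, beside 19.8% of all tested genes. Of the 40, ARHGAP42 was the 1 gene called.

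The stretch was chosen for its low median, so the counts that follow describe that choice and are no test of it. Of its 40 genes 24 had a mean of at least 10 CPM, 21 of these had a log2 fold change below 0, and in 19 both cGAS KO libraries lay below both STING KO libraries, beside 19.8% of all tested genes. RDX, which links membrane to actin, had 144 and 143 CPM in cGAS KO and 203 and 202 CPM in STING KO, with 189 and 191 CPM in XRCC4 KO. CUL5, a scaffold of ubiquitin ligases, had 55.8 and 54.5 CPM in cGAS KO and 75.8 and 75.3 CPM in STING KO, with 69.7 and 73.1 CPM in XRCC4 KO. CASP4, an inflammatory caspase, had 70.0 and 77.1 CPM in cGAS KO and 107 and 115 CPM in STING KO. AASDHPPT, which activates carrier proteins, had 64.7 and 66.0 CPM in cGAS KO and 95.6 and 102.7 CPM in STING KO. ARHGAP42, a GTPase-activating protein of the same stretch that was called in the 14-library fit, had 4.204 and 4.07 CPM in cGAS KO and 10.9 and 9.42 CPM in STING KO (log2 fold change -1.30 ± 0.20, edgeR adjusted p = 0.0399).

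Over those 24 genes the median log2 difference from the cGAS KO mean was 0.40 and 0.39 in the STING KO libraries and 0.32 and 0.37 in XRCC4 KO. It was -0.16 and -0.10 in irradiated WT cells at 5 days and between -0.12 and 0.07 in the other 6 WT libraries. Outside the stretch, the remaining 563 genes of chromosome 11 had medians of at most 0.01 in STING KO and between -0.44 and -0.39 in the 8 WT libraries. So by these medians the cGAS KO line was near the WT level within the stretch. On the rest of the chromosome it was near the other knockout lines. The stretch was not uniform. Its neighbouring genes from CEP126 to TMEM123 had mean STING KO values between -0.07 and 0.02. Among them YAP1 did not separate the lines, at 360 and 331 CPM in cGAS KO and 347 and 330 CPM in STING KO. In irradiated WT cells at 5 days CEP126, YAP1 and BIRC2 were at -0.79, -0.41 and -0.50, and BIRC3 and TMEM123 at 0.40 and 0.12. FDX1, just past the stretch, was at 0.38 in STING KO. DNA copy number was not measured, and its part in these values was not tested.

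**Figure D5:**
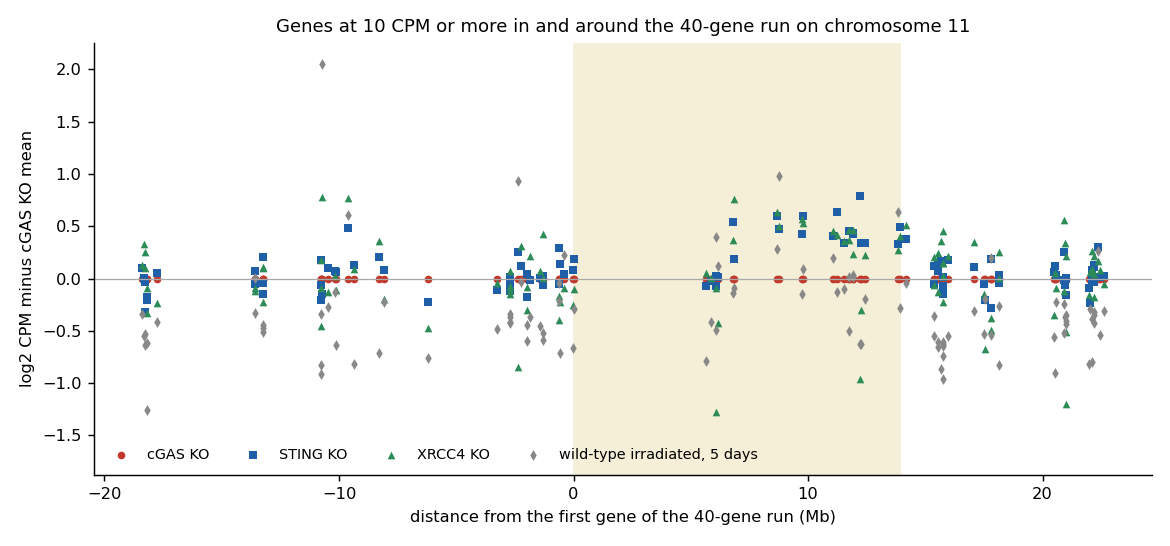
Genes with a mean of at least 10 CPM in and around the 40-gene stretch of chromosome 11 (shaded), by distance in Mb from its first gene and by log2 CPM minus the cGAS KO mean, as the mean of the 2 libraries of each group. In the stretch most STING KO and XRCC4 KO points lie above 0, with medians of 0.41 and 0.37 over 24 genes, while on either side they centre on 0 and the irradiated wild-type points lie below it.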

How the data were processed

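Poly-A RNA of the libraries was sequenced, and the build hg19 with the tools STAR, Cuffnorm, DESeq2, bcl2fastq and FastQC is listed per the submitters' processing notes. Versions and the strandedness of counting were not given in the sources used here, so reads of overlapping genes cannot be told apart. The authors deposited a table of estimated counts per gene, not normalized, and a table of FPKM values for the same libraries. Column names matched the sample titles, and 0 columns were left unmatched. Table intervals were shifted to start from 1 and can span neighbouring genes.

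Estimated counts were rounded to whole numbers. edgeR 4.0.16 (R 4.3.3) fitted all 14 MCF10A libraries of the experiment in 7 groups, with filterByExpr, TMM factors and a robust quasi-likelihood fit on 7 residual degrees of freedom. The contrast was cGAS KO over STING KO, with Benjamini-Hochberg adjustment over 15190 genes. CPM values use TMM-scaled library totals. Standard errors were derived from the F statistic. List levels average log2 CPM with a prior count of 2. Alternatives used limma 3.58.1 on log2(FPKM + 0.5) and DESeq2 1.42.0. The fit was tested on simulated data. Library totals of 11744217 to 16595879 counts limit what can be read of genes under about 1 CPM, and intervals on counts cover counting error only. Genes were named as targets, as anchors of the pathways, as called genes, as up to 3 called members of a list in each direction and as genes read in a single line. All other named genes, such as TBK1, HSPA5, ASNS, IVL, the interferon genes beyond the anchors and those called in the 6-library fit, were chosen after their values were seen, as were the chaperone and amino acid sets. The comparison and its gene lists were chosen with earlier results of these data known. Promoter sequences are RefSeq's. The values of 1 interferon-stimulated gene, counted in its list, are not reported here.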

Additional observations from a re-analysis of the deposited data

How the results depend on the processing

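The number of genes called was 21 (11 higher, 10 lower). It was 98 (50, 48) with the 6 knockout libraries, 62 (28, 34) with DESeq2, 47 (20, 27) with no filter on low counts and 49 (23, 26) with limma on log2(FPKM + 0.5) with no filter. It was 7 (2, 5) with the 4 libraries of the 2 lines, 6 (3, 3) against a fold of 1.5, 5 (2, 3) with limma on filtered log2(FPKM + 0.5) and 7 (3, 4) with a pseudocount of 0.1. Leaving out each library in turn gave 3 to 10 genes, 1 to 4 of them higher and 1 to 6 lower, where the lone library of a line is assumed to vary like the other groups. MB21D1 and TMEM173 kept their call and direction in all 17 alternatives. None of the 21 changed direction in any. Replicate numbers are shared by the lines, but the labels do not say that they pair samples, and there are only 2 pairs, whose deviations correlated at 0.17 over 13464 genes. With the replicate block 20 genes were called (9 higher, 11 lower), 18 of them among the 21. With the replicate block CDK1 was at -0.021, against 0.019. CXCL8 was at 0.071 with limma on log2(FPKM + 0.5), filtered or not, and at 0.084 with the pseudocount of 0.1, against -0.09. Leaving out each of the 4 libraries in turn, the log2 fold change ran from -0.12 to 0.012 for CXCL10, from -0.59 to 0.70 for CXCL8, from -0.21 to 0.37 for MKI67 and from -0.23 to 0.33 for CDK1. It ran from -1.22 to 0.048 for HSP90B1 and from -1.35 to 0.12 for PDIA4, highest without STING KO replicate 1. It ran from -2.10 to 0.11 for ASNS, from -2.58 to 0.80 for PHGDH, from -1.66 to 0.28 for S100A7, from -1.88 to 1.09 for KRT1, from -1.98 to 0.021 for SPRR2A and from -1.31 to 0.78 for IVL, highest without STING KO replicate 2. The cause of these reversals was not tested beyond the library values given. The 48 interferon-stimulated genes with separated lines stayed at 48 on the deposited FPKM, where 2887 of all 15190 tested genes had this order, and 47 with library totals, both chosen after the data were seen. Genes read in a single line numbered 1, 5 at 2 against 0.2 CPM, and 21 on FPKM, where they were mostly short non-coding RNAs. The lowest run had -0.61 in runs of 15 genes, on chromosome 1, and -0.46 in runs of 40, on chromosome 11.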
